A study of Mus musculus with 42 samples.

Results

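The soleus of C3KO mice was compared between adult and young animals, as adult minus young on the log2 scale. C3KO mice lack functional Capn3, the gene of calpain 3. The members are the 9 C3KO soleus arrays that could be used, 6 of adult mice aged 11 to 12 months (Q2-1, Q2-2, Q2-3, Q2-4, U2-1 and U2-2) and 3 of young mice aged 2 to 3 months (J4-1, J4-2 and H4-1), out of 42 arrays in the series. They were taken by the genotype, age and muscle in the sample titles. The soleus array of a further young C3KO mouse, H4-2, was left out because it carries strong liver transcripts. Wild-type (wt) soleus of the same ages (5 adult and 4 young arrays) and quadriceps of C3KO mice (7 adult and 4 young arrays) serve for comparison. All mice were male, untreated as far as the labels say, and both genotypes carry the same strain label, 129 SvEvBrd x C57BL/6 heterozygotes. Each array holds the RNA of 1 muscle of 1 mouse. Adult animals here are in middle age rather than old, and Capn3 is absent throughout life, so the comparison joins maturation, ageing and time spent without calpain 3.

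Calpain 3 is a protease of skeletal muscle that binds the giant sarcomere protein titin, and its loss causes a recessive limb-girdle muscular dystrophy in people. Sarcomeres under mechanical load are held at the Z-disc and along titin by structural and signalling proteins, several of which are induced when muscle is stretched, injured or denervated. Soleus is a postural muscle rich in slow fibres and is among the muscles affected in mice without calpain 3.

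The labels were checked against defining genes before the results. Capn3 ran from 4.10 to 4.93 on the 9 C3KO arrays and from 10.09 to 10.45 on the 9 wt soleus arrays, and it did not differ by age (0.04 ± 0.14, standard error; adjusted p = 0.946 by limma). Slow minus fast fibre markers (mean log2 of 12 slow genes less that of 14 fast genes) ran from -1.41 to 0.96 in C3KO soleus and from -7.52 to -4.53 in C3KO quadriceps. Liver genes had a median of 12.27 on the array of H4-2, against 3.36 to 3.75 on the 9 arrays used. Codes at the start of the descriptions, whose meaning the labels do not give, put 3 adult arrays in 1-1 (Q2-1, Q2-2 and Q2-3) and the other 3 adult and all 3 young arrays in 1-3. The C3KO adults carry the name prefix Q2 or U2 and the young J4 or H4. No prefix occurs at both ages, so age and a property that goes with the prefix cannot be told apart. The 3' to 5' log2 difference of actin probe sets, a sign of RNA length, averaged 0.268 ± 0.115 (SD, n = 6) in adult and 0.143 ± 0.0554 (SD, n = 3) in young arrays. Fitting it beside age gave 178 genes, and these held 116 of the 149 called without it. Arrays of whole muscle cannot tell apart fewer cells of a type and less RNA per cell.

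Ankrd1, Myh3 and Musk, genes of the sarcomere, of regenerating fibres and of the neuromuscular junction, rose, and their promoters are shown here because the first results turn on these genes. Each line gives the 250 bases before the RefSeq start, 5' to 3' on the gene's strand, on build GRCm38.p6. RefSeq promoters were matched to 123 of the 149 genes that passed the threshold. Ankrd1 lies at chr19:36119845-36120094 (minus strand), Myh3 at chr11:67078050-67078299 (plus strand) and Musk at chr4:58285712-58285961 (plus strand). Capitals mark CATTCC (the MCAT element) and CANNTG (the E-box) in Ankrd1, TATAAA and CANNTG in Myh3, and CANNTG in Musk, read on both strands.
Ankrd1: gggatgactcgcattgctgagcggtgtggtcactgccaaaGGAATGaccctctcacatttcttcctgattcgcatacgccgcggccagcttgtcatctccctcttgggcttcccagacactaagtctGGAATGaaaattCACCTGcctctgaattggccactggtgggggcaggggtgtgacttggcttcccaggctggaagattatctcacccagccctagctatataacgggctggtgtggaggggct
Myh3: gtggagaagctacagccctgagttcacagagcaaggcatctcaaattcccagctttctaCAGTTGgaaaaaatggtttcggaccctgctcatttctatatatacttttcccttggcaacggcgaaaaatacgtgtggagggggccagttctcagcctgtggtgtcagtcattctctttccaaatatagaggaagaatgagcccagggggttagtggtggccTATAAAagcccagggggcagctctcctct
Musk: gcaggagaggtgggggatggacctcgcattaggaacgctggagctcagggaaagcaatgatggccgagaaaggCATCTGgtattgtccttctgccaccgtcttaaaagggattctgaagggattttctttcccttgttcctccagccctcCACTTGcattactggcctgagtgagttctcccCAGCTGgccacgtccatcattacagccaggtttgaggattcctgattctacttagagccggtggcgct
CATTCC stood on the opposite strand of Ankrd1 at -210 to -205 and again at -123 to -118, counted from the base before the start as -1, and an E-box stood at -111 to -106. Myh3 held TATAAA at -29 to -24 and an E-box at -191 to -186. Musk held E-boxes at -177 to -172, -100 to -95 and -68 to -63, the last of them CAGCTG. Of 32851 RefSeq promoters of the same length, 12.6% held CATTCC, 12.4% TATAAA, 13% CAGCTG and 66.2% CANNTG. These matches are letters in a window and not evidence of binding.

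Over all genes, 149 of 12014 (1.24%) passed an adjusted p of 0.05 between adult and young C3KO soleus (limma with Benjamini-Hochberg adjustment). Of these, 112 rose (0.932%) and 37 fell (0.308%). Rises of more than 2-fold numbered 23 and falls of more than 2-fold 10. In 143 of the 149 genes the 6 adult and 3 young arrays did not overlap. The 15 largest rises and 15 largest falls described below were picked among those without overlap. Their lack of overlap is therefore not a further result. Over all genes tested the arrays did not overlap in 8.17%, 5.59% with adult higher and 2.58% with adult lower. At an unadjusted p under 0.05, 14.6% of all genes differed, 10.0% higher and 4.53% lower, and the median change of all genes was 0.03. The estimate was above 0 in 6764 genes and below 0 in 5250. How many genes passed rested on single arrays. Leaving out the young mouse J4-1 left 10 genes, J4-2 57 and H4-1 50, while leaving out 1 adult mouse left 64 (without Q2-4), 78 (Q2-2), 92 (Q2-3), 107 (U2-1), 109 (Q2-1) or 184 (U2-2). The 6 arrays of code 1-3 alone, 3 adult against 3 young, gave 38 genes, of which 34 are among the 149, and code as a block gave 28, of which 27 are. The rule for described genes, given at the end, picked 40 of the 149, and Ephx1, Prkcz and Tmem30b are not among them. Of these 40, 12 passed with code as a block and 15 on code 1-3 alone. No gene of the 149 changed sign under any setting. This gives little support, since the genes were picked for their change on mostly the same arrays. In the 143 without overlap, leaving out 1 array could not reverse the sign. In each of the 9 fits that left out 1 C3KO array, 9 genes passed, namely Acer2, Armh4, Ephx1, Meg3, Ndrg4, Prkcz, Prkd1, Rgcc and Tmem30b.

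**Figure D1:**
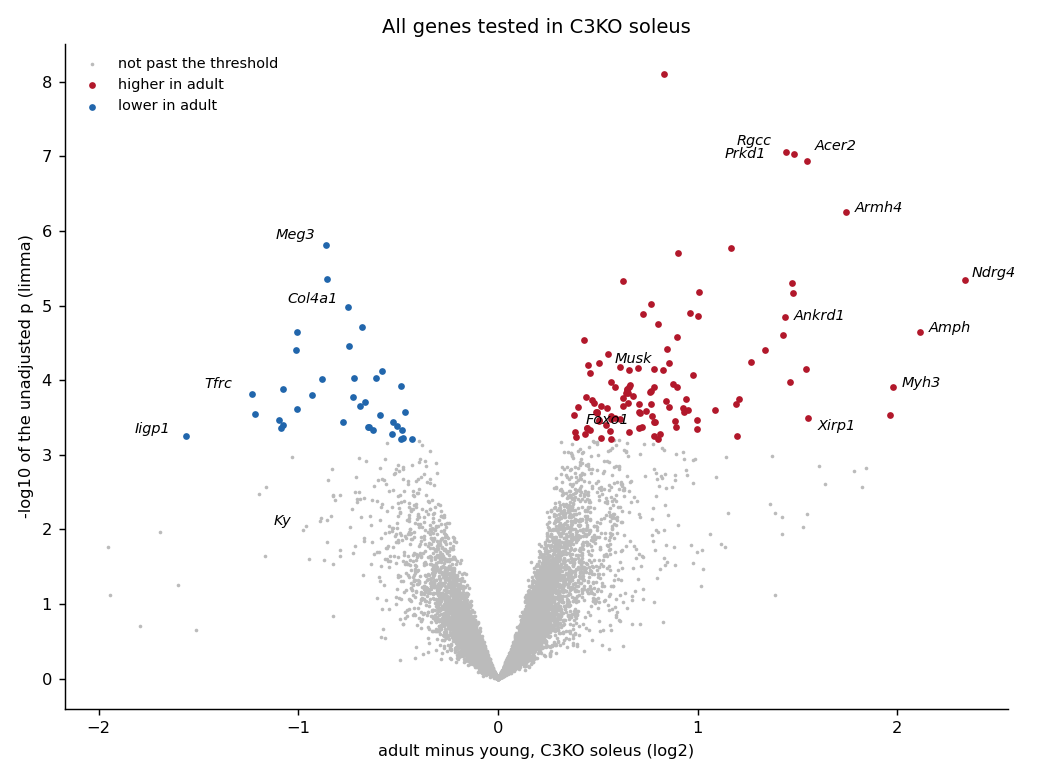
Each point is 1 of the 12014 genes tested in C3KO soleus, with the adult minus young log2 change on the horizontal axis and -log10 of the unadjusted limma p on the vertical axis. Genes past an adjusted p of 0.05 are red (112 higher in adult) or blue (37 lower in adult), and Ky is labelled though it did not pass.

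Genes that build or guard the sarcomere rose in 3 of 29 cases, against 0.932% of all genes: Ankrd1, Xirp1 and Lmod2. Ankrd1 encodes an ankyrin repeat protein that binds titin. Its adult values ran from 8.38 to 9.17 (median 8.56) against 7.39 (J4-1), 7.70 (J4-2) and 6.71 (H4-1) in the young mice. All 6 adult arrays were above all 3 young arrays, a rise of 1.44 ± 0.25 or 2.71-fold (adjusted p = 0.0085). Xirp1 encodes Xin, an actin-binding protein of attachment sites and of injured fibres. It ran from 10.78 to 11.60 (median 11.15) in adults against 9.44, 9.74 and 9.62 in J4-1, J4-2 and H4-1, again without overlap. The rise was 1.55 ± 0.35 (2.94-fold, adjusted p = 0.0358). Lmod2, leiomodin of the thin filament end, was an abundant transcript and rose by 0.52 ± 0.11 (adjusted p = 0.0321), from 11.80, 11.83 and 11.92 in the young to between 12.22 and 12.57 in adults. The list as a whole had a median change of 0.08, close to that of all genes, and none of its 29 members fell past the threshold. Ky, a Z-disc protein gene, had the lowest estimate of the list, -0.98 ± 0.34 (adjusted p = 0.171), with adults at 5.80 to 7.26 (median 6.67) and young at 8.23, 7.01 and 7.56, which overlapped. Without J4-1 the adjusted p was 0.0604 for Ankrd1, 0.198 for Xirp1 and 0.182 for Lmod2. Ankrd1 was also lost without H4-1 (0.055), Lmod2 without Q2-2, Q2-4, J4-2 or H4-1 as well (up to 0.0897), and Xirp1 without any 1 array but U2-1 or U2-2. With code as a block the call of Ankrd1 remained (1.16, adjusted p = 0.0484), and those of Xirp1 (1.06, 0.127) and Lmod2 (0.46, 0.119) did not. The list median was 0.05 without Q2-2, 0.17 without Q2-4 and 0.16 without J4-1.

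Among 12 measured genes of developing and regenerating fibres, 3 rose, against 0.932% of all genes, and none fell: Myh3 beside Ankrd1 and Xirp1. Myh3 encodes embryonic myosin heavy chain, which mature fibres make little of. Adult values ran from 7.33 to 9.27 (median 7.95), and the young arrays read 5.91 (J4-1), 6.88 (J4-2) and 5.43 (H4-1). The adult arrays lay above the young ones with a wide spread, a rise of 1.98 ± 0.41 or 3.94-fold (adjusted p = 0.026). Its call was lost without Q2-2 (adjusted p = 0.0505), H4-1 (0.131) or J4-1 (0.177), and with code as a block (1.83, adjusted p = 0.0984). The cardiac actin gene Actc1, an actin of developing muscle, read 9.10 to 10.11 in adults and 9.55, 9.12 and 8.70 in the young (0.53 ± 0.21, adjusted p = 0.247). The median of the 12 was 0.22, or 0.44 without J4-2, and 10 were above 0 (6764 of 12014 over all genes). Satellite cell markers gave no such count: 0 of 10 measured passed, with a median of -0.13 that ran from -0.24 without H4-1 to 0.016 without J4-2. Of 17 measured cell division genes 0 passed, with a median of -0.01 that ran from -0.04 to 0.03 on leaving out 1 array. Of 39 cell division genes on the array, 20 were above the array median on none of the 9 arrays.

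At the neuromuscular junction, 1 of 17 measured genes rose, the receptor kinase gene Musk, which clusters acetylcholine receptors. Over all genes 0.932% rose, and 1 call in 17 says little about the list. Adult arrays read 6.92 to 7.34 (median 7.16) and young arrays 5.82 (J4-1), 6.63 (J4-2) and 6.43 (H4-1). The groups did not overlap, and the rise was 0.86 ± 0.17, 1.81-fold (adjusted p = 0.0201). Without J4-1, the lowest young array, it was 0.62 with an adjusted p of 0.177, and with code as a block 0.67 with 0.0883. Ncam1, a cell adhesion gene that denervated fibres express, had 0.42 ± 0.12 (adjusted p = 0.1) and Dok7, the adaptor of the Musk receptor, 0.40 ± 0.14 (adjusted p = 0.184), both without overlap. Agrn, the gene of the ligand agrin, had -0.36 ± 0.11 (adjusted p = 0.111), its adult arrays all below the young. The median of the 17 was 0.13, and it was 0.027 without H4-1, 0.068 without Q2-2, 0.071 without J4-1 and 0.24 without J4-2.

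**Figure D2:**
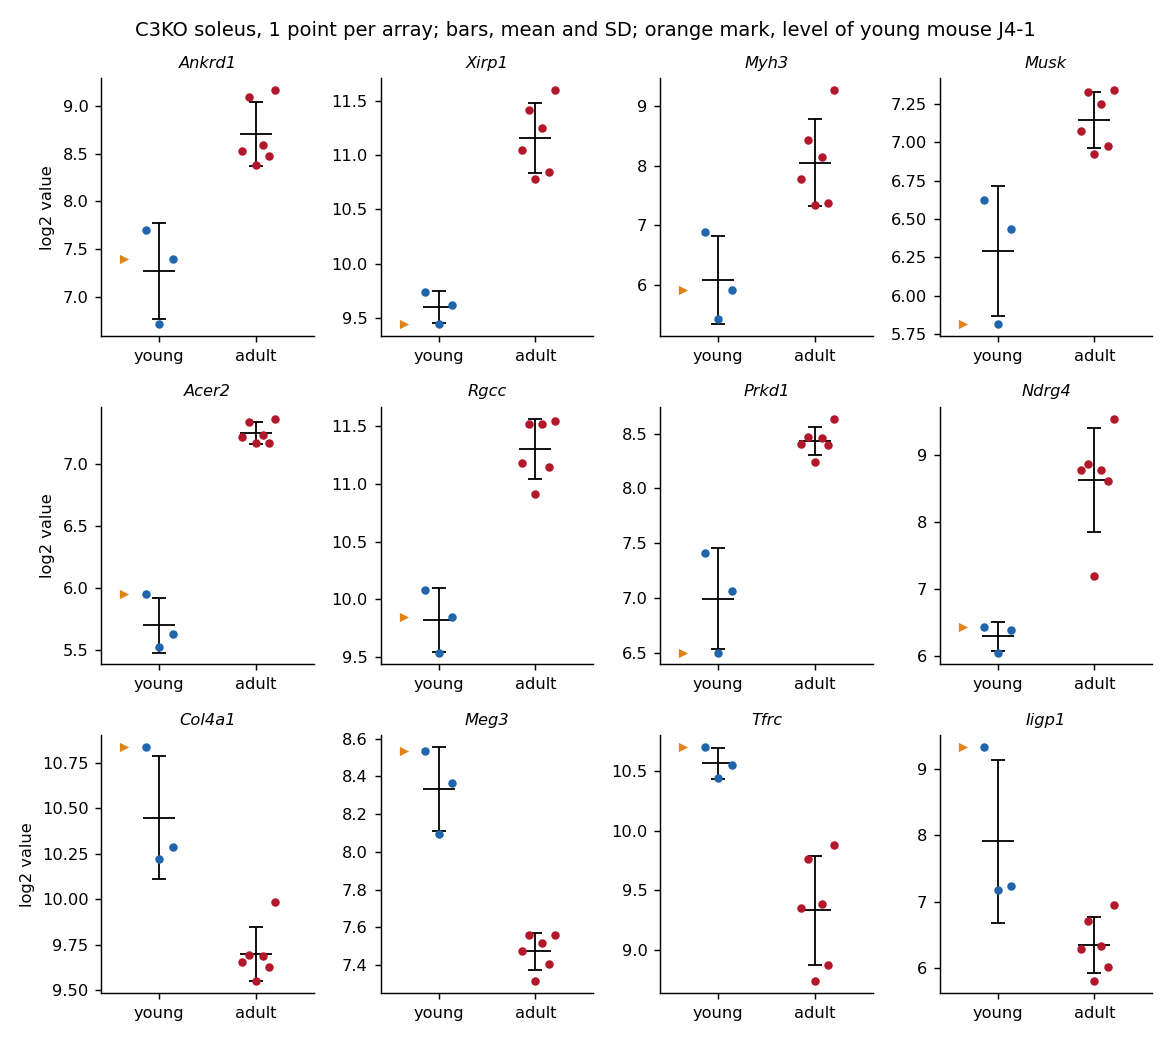
Log2 values of 12 genes on the 9 C3KO soleus arrays (blue, 3 young; red, 6 adult), with the mean and SD as bars. The orange mark gives the level of young mouse J4-1. In each panel the adult and young points do not overlap. The rule for the largest changes, which named all but Musk and Col4a1, required this.

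Of the genes that passed in each leave-one-out fit, Acer2, an alkaline ceramidase that splits ceramide, read 7.17 to 7.36 (median 7.22) in adults and 5.95, 5.52 and 5.63 in J4-1, J4-2 and H4-1. The adult arrays lay close together and clear of every young array. The rise was 1.55 ± 0.19 (2.93-fold, adjusted p = 0.000345), with estimates from 1.46 to 1.67 when 1 array was left out. Rgcc, a regulator of the cell cycle, rose by 1.48 ± 0.18 (adjusted p = 0.000345), from 9.84, 10.08 and 9.54 to between 10.92 and 11.55. Prkd1, protein kinase D, which signals to class II histone deacetylases, rose by 1.44 ± 0.17 (adjusted p = 0.000345), from 6.50, 7.07 and 7.41 to between 8.24 and 8.64. Ephx1, microsomal epoxide hydrolase, had the smallest p of all genes: adults read 9.54 to 9.87 and the young 8.84, 8.75 and 8.91, a rise of 0.83 ± 0.09 (adjusted p = 9.53e-05). Prkcz, an atypical protein kinase C, rose by 0.90 ± 0.13 (adjusted p = 0.003), and Tmem30b, a subunit of lipid flippases, by 1.17 ± 0.17 (adjusted p = 0.00292). Ephx1, Prkcz and Tmem30b are named because they passed in each leave-one-out fit, after their values were seen. Outside those genes, Cds1, which makes the phospholipid precursor CDP-diacylglycerol, rose by 1.48 ± 0.24 (adjusted p = 0.00588), from 3.82, 3.86 and 4.25 to between 5.14 and 6.06. Without J4-1 its adjusted p was 0.0724.

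Ndrg4, a member of the NDRG family, had the largest change of all genes that passed. Adults read 7.19 to 9.55 (median 8.78) and the young 6.44, 6.39 and 6.05, and 1 adult array stood low at 7.19 but above every young one. The rise was 2.34 ± 0.37 or 5.05-fold (adjusted p = 0.00501), and the largest adjusted p on leaving out an array was 0.042. Amph, the endocytosis protein amphiphysin, rose by 2.11 ± 0.38 (adjusted p = 0.0113), from 3.48, 3.68 and 4.24 to between 4.71 and 6.71. All 3 of its young values were at or below their array's median, as were those of Armh4 (1.74 ± 0.24, adjusted p = 0.00134), Cds1 and Nckap5 (1.46 ± 0.30, adjusted p = 0.0252), where signal is low. Zfp697, a zinc finger gene, rose by 1.96 ± 0.44 (adjusted p = 0.0345), Cyfip2, of the actin-nucleating WAVE complex, by 1.47 ± 0.23 (adjusted p = 0.00501), and Mamdc2 by 1.43 ± 0.26 (adjusted p = 0.0121). P3h2, an enzyme that hydroxylates prolines of basement membrane collagen, rose by 1.34 ± 0.25 (adjusted p = 0.0151). Without J4-1 the adjusted p was 0.109 for Amph, 0.141 for Nckap5, 0.196 for Zfp697, 0.0604 for Cyfip2, 0.0932 for Mamdc2 and 0.138 for P3h2. Without H4-1 it was 0.0536 for Mamdc2, 0.0657 for P3h2, 0.0842 for Nckap5 and 0.0514 for Zfp697. Nckap5 was lost without Q2-4 (0.0522) or J4-2 (0.0613) too, and Zfp697 without every array but U2-1 and U2-2. Code as a block ended the calls of Amph (0.0704), Mamdc2 (0.0705), P3h2 (0.0789), Nckap5 (0.102) and Zfp697 (0.127), but not those of Ndrg4 (0.0279), Cyfip2 (0.0279) or Armh4 (0.00785). On code 1-3 alone Ndrg4 did not pass (2.21, adjusted p = 0.0571), while Cyfip2 (0.0491), Armh4 (0.0297) and Nckap5 (0.0123) did.

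Single members rose in lists of turnover and daily rhythm, against 0.932% of all genes. So few calls in lists this short say little about the lists. Foxo1, a transcription factor of the atrophy programme, was the 1 of 19 measured genes of atrophy and autophagy to rise, with adults at 8.28 to 9.01 (median 8.57) and young at 7.94, 7.80 and 7.91. The change was 0.71 ± 0.17 (adjusted p = 0.0405), and the adjusted p was 0.0568 with the actin covariate. Its ubiquitin ligase target Trim63 had -0.45 ± 0.14 (adjusted p = 0.132), and the autophagy gene Gabarapl1 0.78 ± 0.21 (adjusted p = 0.0795). Of 19 measured clock genes 2 rose. Usp2, a clock-controlled ubiquitin protease, rose by 0.71 ± 0.16 (adjusted p = 0.0338) and the clock repressor Cry2 by 0.57 ± 0.13 (adjusted p = 0.0366), while the clock activator Arntl had -0.88 ± 0.29 (adjusted p = 0.148) without overlap of the arrays. The time of day at dissection is not in the labels, and its part was not tested. Odc1, the rate-limiting enzyme of polyamine synthesis, was the 1 of 7 measured genes of its list to rise, by 0.64 ± 0.14 (adjusted p = 0.0274). Without J4-1 the adjusted p of Foxo1 was 0.177, of Usp2 0.0604, of Cry2 0.179 and of Odc1 0.198, and each was lost without J4-2 (0.0648 to 0.136) or H4-1 (0.0574 to 0.13) as well. Among adults, Odc1 was lost without Q2-3, Foxo1 without any of Q2-1 to Q2-4, Usp2 without Q2-2, Q2-3 or Q2-4, and Cry2 without any but U2-2, at adjusted p values up to 0.0819. With code as a block none of Foxo1, Usp2, Cry2 and Odc1 passed (0.112 to 0.138).

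Heat shock protein genes passed in 0 of 23 measured cases by limma. At an unadjusted p under 0.05, 13 were higher, against 10.0% of all genes. In 11, every adult array was above every young array, against 5.59% of all genes. Hspa1a, an inducible chaperone of the Hsp70 family, read 9.22 to 10.06 in adults and 8.10, 8.85 and 8.06 in the young (1.36 ± 0.42, adjusted p = 0.126). Hsph1, a co-chaperone, had 0.58 ± 0.14 (adjusted p = 0.051). The list's mean log2 value ran from 10.18 to 10.52 in adults and was 9.93 (J4-1), 10.24 (J4-2) and 9.99 (H4-1) in the young, so J4-2 lay within the adult range. Genes of the unfolded protein response passed in 0 of 22 cases, with 8 higher at an unadjusted p under 0.05, led by the endoplasmic reticulum chaperone Hspa5 (0.64 ± 0.16, adjusted p = 0.0622). Antioxidant genes passed in 0 of 25, with 9 higher at that level, led by the sulfiredoxin gene Srxn1 (1.09 ± 0.31, adjusted p = 0.0892). List medians were 0.24, 0.21 and 0.20. Leaving out 1 C3KO array moved the counts at an unadjusted p under 0.05 to between 6 and 13 heat shock, 4 and 8 unfolded protein and 4 and 10 antioxidant genes. The heat shock count was 6 without J4-1, the unfolded protein count 5 without J4-1 and 4 without H4-1, and the antioxidant count 4 without J4-1 and 5 without H4-1.

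In lists of growth and matrix genes, single members fell, against 0.308% of all genes. A single call in a list of 12 or 13 says little about the list. Meg3, a maternally expressed long non-coding RNA, was the 1 of 12 measured imprinted growth genes to fall. Adults read 7.31 to 7.56 (median 7.50) and young 8.54 (J4-1), 8.37 (J4-2) and 8.10 (H4-1), with no overlap and a change of -0.86 ± 0.13 (adjusted p = 0.00292). It passed in each leave-one-out fit, at 0.0496 without J4-1. The growth factor gene Igf2 had -0.36 ± 0.10 (adjusted p = 0.077), also without overlap. The list's median was -0.23, and 11 of 12 were below 0 (5250 of 12014 over all genes). Col4a1, a chain of basement membrane collagen, was the 1 of 13 measured basement membrane genes to fall, to 9.55 to 9.99 in adults from 10.84, 10.29 and 10.22 (-0.75 ± 0.13, adjusted p = 0.00784). Without J4-1, its highest young array, it was -0.55 with an adjusted p of 0.0932. Its partner Col4a2 had -0.44 ± 0.15 (adjusted p = 0.148), the list's median was -0.26, and 11 of 13 were below 0. Fibrillar collagen genes passed in 0 of 23 cases, with 7 lower at an unadjusted p under 0.05 (4.53% of all genes) and a median of -0.21. Without J4-1 the 7 became 1 and the median -0.055, and without H4-1 the median was -0.37. With the actin covariate the 7 became 11. Col1a1 read 6.36 to 8.07 in adults and 9.08, 7.82 and 7.37 in the young (-0.96 ± 0.33, adjusted p = 0.164). The mean of the fibrillar list was 7.47 in J4-1 and 7.13 and 6.87 in J4-2 and H4-1, against 6.66 to 7.25 in adults.

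Another 14 named genes fell. Where 1 of them is the only fall of a list, the share over all genes was 0.308%, and 1 call says little about the list. Tfrc, the transferrin receptor that takes up iron, read 8.74 to 9.88 (median 9.37) in adults and 10.70, 10.55 and 10.44 in the young, with no overlap (-1.23 ± 0.26, adjusted p = 0.0275). Acvr2b, a receptor for myostatin and activins, was the 1 of 18 measured genes of IGF and myostatin signalling to fall (-0.53 ± 0.13, adjusted p = 0.0458). Frzb, a secreted Wnt antagonist, was the 1 of 19 measured Wnt genes to fall (-1.09 ± 0.25, adjusted p = 0.0371), from 5.72, 5.71 and 5.26 to between 3.73 and 5.02, where 3 adult values were at or below their array's median. Lrrc38, a subunit of potassium channels, had -1.22 ± 0.27 (adjusted p = 0.0339), and Ddit4l, an inhibitor of mTOR signalling, -1.08 ± 0.25 (adjusted p = 0.0402). Smaller falls were those of Nrep (-1.07 ± 0.23, adjusted p = 0.0264), the histone gene H3c11 (-1.01 ± 0.19, adjusted p = 0.0151), the transcription factor gene Sox4 (-1.01 ± 0.22, adjusted p = 0.0324), Mlf1 (-1.01 ± 0.18, adjusted p = 0.0113) and Gpcpd1, a choline phospholipid enzyme (-0.85 ± 0.13, adjusted p = 0.00501). Mettl21e, a lysine methyltransferase gene, fell by 1.09 ± 0.26 (adjusted p = 0.0405), Ppp1r14c, an inhibitor of protein phosphatase, by 0.93 ± 0.20 (0.0282), the B cell adaptor gene Blnk by 0.88 ± 0.18 (0.0244) and the endothelial receptor gene Cd93 by 0.78 ± 0.18 (0.0372), on the log2 scale with limma's adjusted p in brackets. Mettl21e was at or below the array median on 4 adult arrays and Blnk on 5. Each of these 14 calls was lost without J4-1, at an adjusted p from 0.0604 (Gpcpd1) to 0.235 (Cd93), and all but that of Gpcpd1 without J4-2, at 0.0522 (Mlf1) to 0.179 (Mettl21e). Tfrc, Lrrc38, Frzb, Ddit4l, Cd93 and Acvr2b were lost without H4-1 as well (0.0599 to 0.189). Leaving out 1 adult mouse ended the calls of Tfrc (Q2-4), Frzb (Q2-1, Q2-3 or U2-2), Acvr2b (Q2-1, Q2-3, Q2-4 or U2-1), Mettl21e and Ddit4l (any but U2-1), Cd93 (any but U2-2), and Lrrc38 and Sox4 (any of Q2-1 to Q2-4), at adjusted p values up to 0.0889. Without J4-2 the change of Mettl21e was -0.67. With code as a block Gpcpd1 passed (0.0279), and the other 13 did not (0.0704 to 0.166). Cd93 was lost with the actin covariate (0.068), and Lrrc38 with H4-2 kept (0.234).

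Iigp1, an interferon-inducible GTPase, had the largest fall of the genes that passed, and its size leaned on J4-1. Adults read 5.80 to 6.95 (median 6.31) and the young 9.33 (J4-1), 7.23 (J4-2) and 7.17 (H4-1). The adult arrays lay below the young ones, by -1.56 ± 0.38 (adjusted p = 0.0478), and without J4-1 by -0.85 with an adjusted p of 0.328. It was also lost without Q2-1, Q2-2, Q2-3, Q2-4 or J4-2, at up to 0.0988, with the actin covariate (0.0776) and with code as a block (0.135). It was the 1 of 25 measured genes of interferon response and MHC class I to fall past the threshold, against 0.308% of all genes. All 25 estimates were below 0, as were 5250 of 12014 over all genes. Their median was -0.31, or -0.16 without J4-1. At an unadjusted p under 0.05, 12 were lower, against 4.53% of all genes. Without J4-1 the 12 became 3. The list's mean was 6.77 in J4-1, 6.34 in J4-2 and 6.17 in H4-1, against 5.97 to 6.13 in adults.

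**Figure D3:**
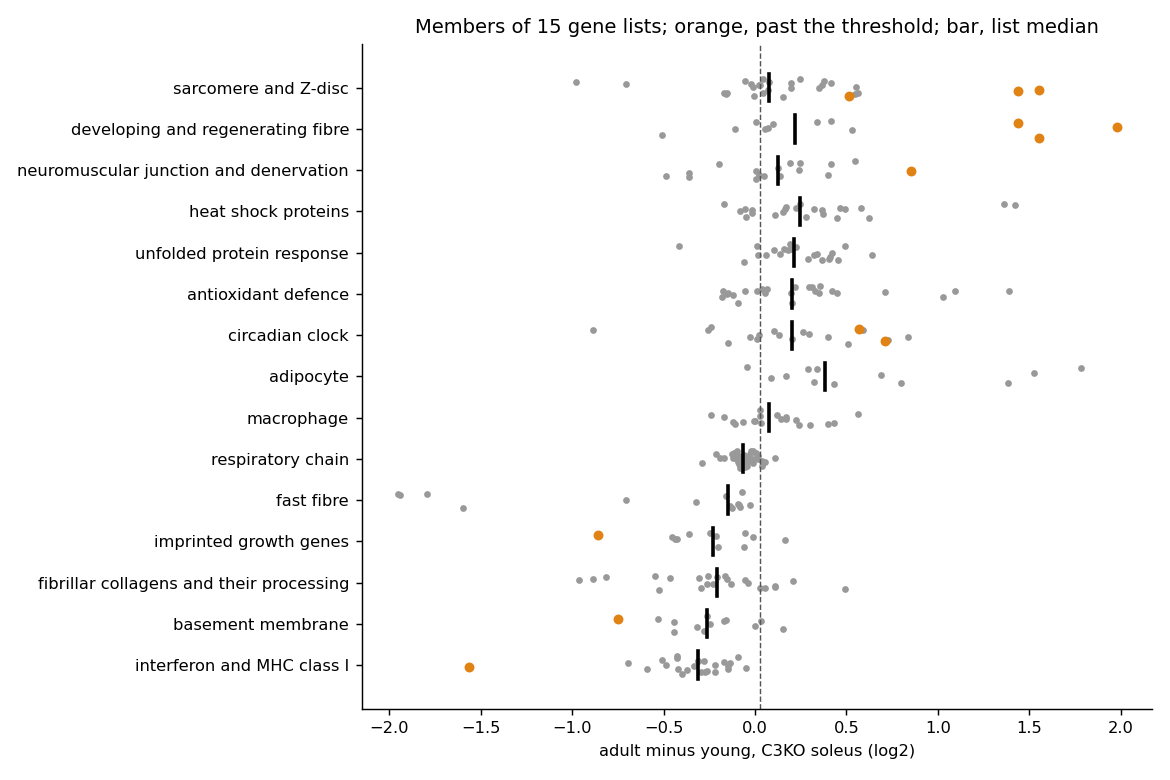
Adult minus young log2 changes in C3KO soleus of the measured members of 15 gene lists, 1 point per gene, with the list median as a black bar and the median of all genes as a dashed line. Orange points passed an adjusted p of 0.05, among them 3 sarcomere genes and 3 genes of developing and regenerating fibres on the right and 1 interferon gene on the left. Ankrd1 and Xirp1 belong to both the sarcomere and the regenerating fibre list and are drawn in each.

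Markers of other cells and of fibre type are given beside these groups. Macrophage markers passed in 0 of 20 measured cases, with a list mean of 5.61 to 6.38 in adults and 5.86 (J4-1), 6.15 (J4-2) and 5.51 (H4-1) in the young. Adipocyte markers passed in 0 of 12, with a median of 0.39 and a mean of 7.69 to 8.62 in adults against 7.56, 7.75 and 7.38. The fat cell hormone gene Adipoq read 7.62 to 10.05 in adults and 7.45, 8.18 and 6.79 in the young (1.78 ± 0.49, adjusted p = 0.0824). Endothelial markers passed in 0 of 14 and T cell markers in 0 of 5, and 5 of 10 T cell markers on the array were above the array median on none of the 9 arrays. Slow fibre genes passed in 0 of 12 (median 0.09, or 0.0018 without J4-1 and 0.17 without J4-2) and fast fibre genes in 0 of 14 (median -0.15). All 14 fast estimates were below 0, against 5250 of 12014 over all genes. The fast list's mean ran from 11.28 to 12.80 in adults and was 13.35 (J4-1), 12.37 (J4-2) and 12.87 (H4-1) in the young, and Pvalb, a calcium buffer of fast fibres, read 7.03 to 10.95 against 12.52, 10.41 and 11.33 (-1.95 ± 0.75, adjusted p = 0.214). Respiratory chain genes passed in 0 of 44, with a median of -0.06 and a range of estimates from -0.29 to 0.11. The part of these cell and fibre markers in the gene changes was not tested.

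Whether the age change differed between genotypes was tested as an interaction, and 32 of 12014 genes (0.266%) passed. The C3KO change was the more positive in 23 (0.191%) and the more negative in 9 (0.0749%). The count was 149 without the wt adult M2-2, 10 without H4-1 and 14 to 21 without Q2-2, Q2-3, Q2-4, W2-1, W2-3, X2-3, J4-1, F4-1 or F4-2. The 4 wt young mice all carry the name prefix F4, so the wt age change and a property of those mice cannot be told apart. In C3KO, too, no prefix is shared by the 2 ages. Acer2 is one of the 32: beside its rise in C3KO, wt arrays read 6.92, 6.41, 5.88 and 5.98 in the young and 6.24, 5.86, 6.07, 5.43 and 5.75 in adults, which overlap. The difference in change was 1.98 ± 0.26 (adjusted p = 0.00218), and every C3KO adult array was above every wt array. Foxo1 read 9.04, 9.02, 8.27 and 8.37 in wt young and 8.08, 7.77, 7.99, 8.02 and 7.76 in wt adults, a fall of 0.75 ± 0.16 (adjusted p = 0.0296) where C3KO rose, a difference of 1.46 ± 0.23 (adjusted p = 0.00968). Young C3KO and adult wt arrays stood at a like level, and adult C3KO and young wt arrays above them. Rgcc did not differ by age in wt (-0.0033 ± 0.17, adjusted p = 0.996) and its difference was 1.49 ± 0.25 (adjusted p = 0.0113), or 1.35 without H4-1 (adjusted p = 0.0545). Hsph1 fell in wt (-0.72 ± 0.14, adjusted p = 0.0181), with a difference of 1.30 ± 0.20 (adjusted p = 0.00968), as did Dct, an enzyme of melanin synthesis (-1.05 ± 0.22, adjusted p = 0.0296). Dct rose in C3KO by 1.00 ± 0.24 (adjusted p = 0.042), where its arrays overlap and the call was lost without any 1 array but Q2-3 (up to 0.221). Its difference between genotypes was 2.04 ± 0.32 (adjusted p = 0.00968).

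Alpk3, Vegfc and Zfp30, like Hsph1, had an age change that passed in wt and not in C3KO, 4 of the 8 genes with the smallest p. Alpk3, a kinase gene of muscle, read 11.87, 11.82, 12.07 and 12.01 in wt young and 9.62 to 10.39 in wt adults (-2.07 ± 0.28, adjusted p = 0.001), against 0.56 ± 0.29 in C3KO (adjusted p = 0.393), a difference of 2.63 ± 0.41 (adjusted p = 0.00968). Vegfc, a lymphatic growth factor gene, read 4.51, 5.01, 5.25 and 5.32 in wt young and 6.75 to 7.15 in wt adults (1.92 ± 0.20, adjusted p = 9.02e-05) against -0.55 ± 0.21 in C3KO (adjusted p = 0.212), a difference of -2.47 ± 0.29 (adjusted p = 0.000747). With the mean of the gene's probe sets, the Vegfc difference was -1.16 (adjusted p = 0.0636). Zfp30, a zinc finger gene, had 1.37 ± 0.19 in wt (adjusted p = 0.00164) and -0.34 ± 0.20 in C3KO (adjusted p = 0.465). The difference of Zfp30 was -1.71 ± 0.28 (adjusted p = 0.0113). In Vegfc and Zfp30 the wt young arrays lay below all arrays of the other 3 groups, and in Alpk3 the wt adult arrays did. The sarcomere genes that rose in C3KO had wt changes near 0, Ankrd1 0.06 ± 0.24 and Xirp1 -0.0064 ± 0.34, but their differences did not pass: 1.38 ± 0.34 (adjusted p = 0.0902) and 1.56 ± 0.49 (adjusted p = 0.172). Ndrg4 did pass, with a wt change of -0.74 ± 0.35 (adjusted p = 0.366) and a difference of 3.07 ± 0.51 (adjusted p = 0.0113). Col4a1 fell in wt as well (-0.74 ± 0.12, adjusted p = 0.00627), and its difference was -0.0095 ± 0.17 (adjusted p = 0.989). Of the 149 genes called in C3KO soleus, 11 were called in wt soleus in the same direction, 7.38% of the 149 and 10.4% of the 106 called in wt. The wt estimate had the same sign in 99 of the 149. The genotype difference passed in 13 of the 149, against 0.266% of all genes, and the C3KO change enters both tests. In wt soleus 42 genes rose (0.350%) and 64 fell (0.533%), in all 0.882% of genes tested, and 17 genes passed there without F4-2, 32 without W2-3, 38 without F4-1, 44 without W2-1 and 62 without F4-4.

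**Figure D4:**
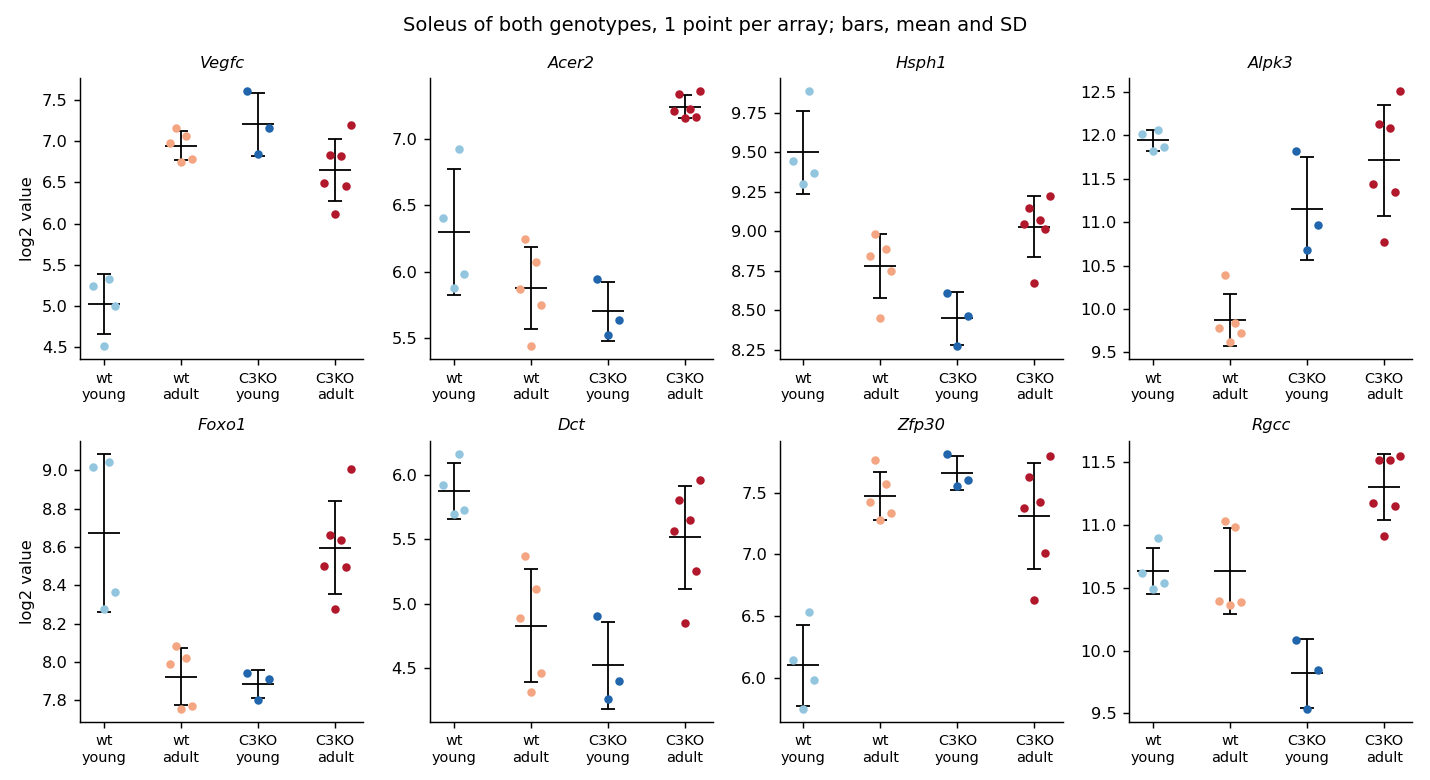
Log2 values in soleus of the 8 genes with the smallest p for a difference in age change between genotypes, 1 point per array (4 wt young, 5 wt adult, 3 C3KO young, 6 C3KO adult), with the mean and SD as bars. In Vegfc and Zfp30 the wt young arrays, and in Alpk3 the wt adult arrays, lie below all others, and in Acer2 the C3KO adult arrays lie above all others.

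Quadriceps, a mostly fast muscle, came from the same 9 mice and from the adult U2-3 and the young H4-2, and there 136 of 11974 genes (1.14%) passed between adult and young C3KO mice, 53 higher (0.443%) and 83 lower (0.693%). Leaving out J4-1 left 31 genes, J4-2 37, H4-2 57, Q2-3 76 and Q2-1 80. Of 137 genes called in soleus and tested in quadriceps, 20 were called there in the same direction, 14.6% of the 137 and 15.2% of the 132 called in quadriceps among genes tested in both. The quadriceps estimate had the same sign in 118 of the 137. Since the muscles come mostly from the same mice, these counts are not independent of the soleus result. Xirp1 rose by 1.50 ± 0.34 in quadriceps (adjusted p = 0.03), Musk by 0.67 ± 0.13 (adjusted p = 0.0104), Acer2 by 0.76 ± 0.18 (adjusted p = 0.0311) and Rgcc by 0.93 ± 0.19 (adjusted p = 0.0135). Col4a1 had -0.66 ± 0.13 (adjusted p = 0.0156) and Iigp1 -1.69 ± 0.39 (adjusted p = 0.0318). Ankrd1 had 1.34 ± 0.39 (adjusted p = 0.108), and Ndrg4, with the largest soleus rise, had -0.53 ± 0.19 (adjusted p = 0.222). In fibrillar collagens, 8 of 23 members fell in quadriceps, against 0.693% of all genes there, and 0 of 23 passed in soleus. Their median change was below 0 in both muscles, -0.45 in quadriceps and -0.21 in soleus. Whether the list differed between the muscles was not tested.

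Soleus minus quadriceps was then formed within each of 9 C3KO mice, 6 adult and 3 young, and its change with age was tested over mice. Of 12071 genes, 18 (0.149%) passed, 15 in which soleus gained on quadriceps with age (0.124%) and 3 in which it lost (0.0249%). Leaving out J4-1 or J4-2 left 1 gene, H4-1 2, Q2-2 or U2-1 3, Q2-1 4, Q2-3 6 and Q2-4 10. Actc1 led: young quadriceps read 12.99 (J4-1), 12.99 (J4-2) and 11.72 (H4-1) against 9.55, 9.12 and 8.70 in soleus of the same mice, while adult quadriceps read 9.87 to 10.92 and adult soleus 9.10 to 10.11. The difference between muscles changed by 2.82 ± 0.27 (adjusted p = 0.00156), and it passed without any 1 mouse. The change in quadriceps was the larger, with a change there of -1.96 ± 0.35 (adjusted p = 0.00849) against 0.53 ± 0.21 in soleus. Tmem37, a calcium channel subunit, and Aldh1a1, a retinaldehyde dehydrogenase, went the other way, by -1.23 ± 0.15 and -1.06 ± 0.13 (both adjusted p = 0.0124), with rises in quadriceps of 0.91 ± 0.17 (adjusted p = 0.00956) and 0.80 ± 0.10 (adjusted p = 0.00016) and no call in soleus.

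In 3 of the 8 genes the soleus itself changed. Amph differences within a mouse ran from 1.75 to 3.83 in adults and were 0.39, 0.71 and 0.94 in J4-1, J4-2 and H4-1, a change of 2.28 ± 0.34 (adjusted p = 0.0305). Nckap5 changed by 1.46 ± 0.21 (adjusted p = 0.0291) and Nin, a centrosome protein gene that rose by 0.77 ± 0.13 in soleus (adjusted p = 0.0077), by 0.97 ± 0.13 (adjusted p = 0.0217). Quadriceps values of Amph (2.71 to 3.30) and Nckap5 (3.00 to 3.54) were low at both ages, and neither gene was tested in quadriceps alone. Both genes lay above the array median in adult soleus only, and entered the paired test only through that group. With quadriceps below the array median, their paired change mainly restates the soleus rise. Cd28, the gene of a costimulatory receptor on T cells, and Ankrd44 changed by 1.36 ± 0.21 and 0.81 ± 0.13 (both adjusted p = 0.0391), with neither muscle passing alone. Of these 8, Tmem37 lost its call without J4-1, J4-2 or H4-1 (up to 0.0888) and Aldh1a1 without J4-1 (0.0888) or J4-2 (0.0882). Nin was lost without Q2-2, U2-1 or any young mouse (up to 0.107), Nckap5 without those or Q2-1 (up to 0.155), Amph and Cd28 without those, Q2-1 or Q2-3 (up to 0.155 and 0.167), and Ankrd44 without every mouse but U2-2 (up to 0.207).

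**Figure D5:**
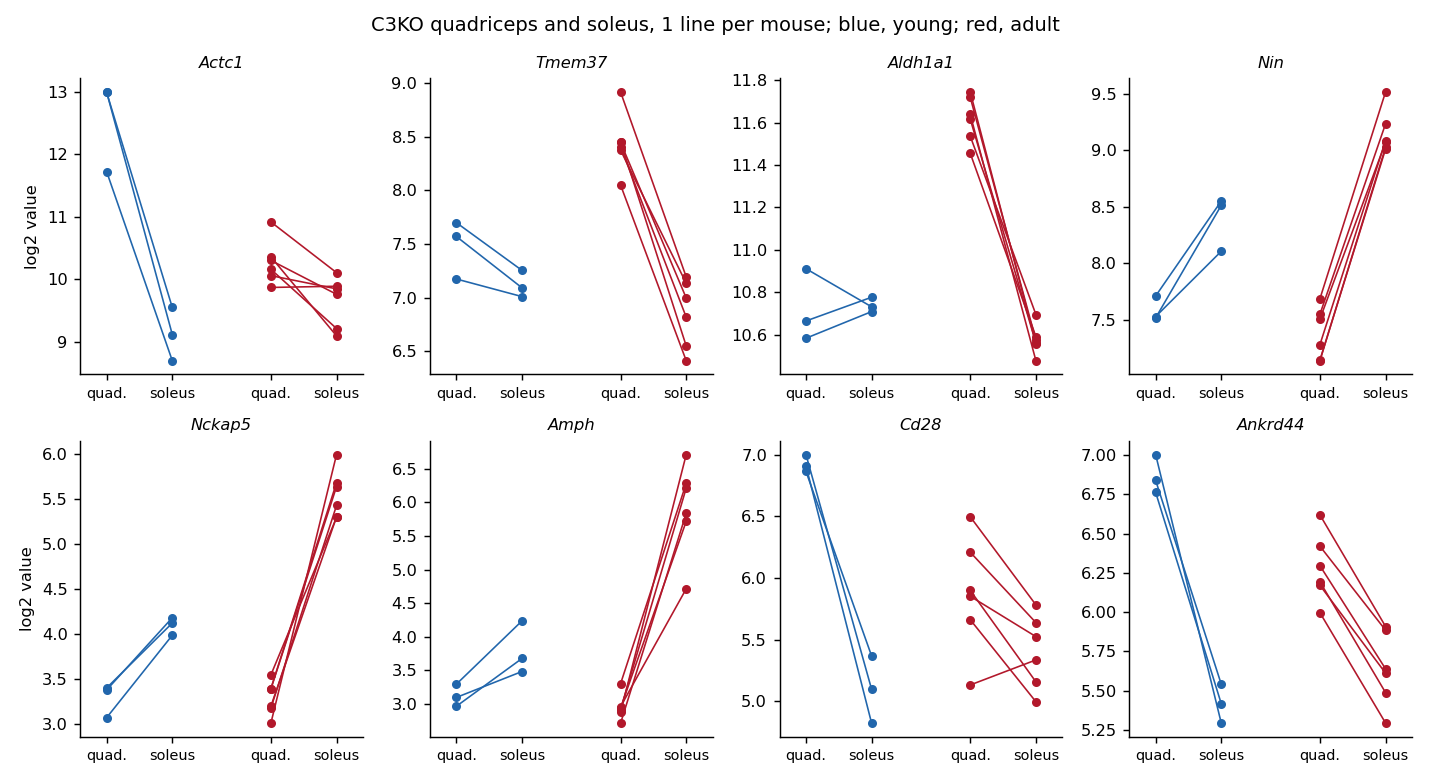
Log2 values in quadriceps and soleus of each of 9 C3KO mice (blue, 3 young; red, 6 adult; 1 line per mouse) for the 8 genes with the smallest p for a change with age in the difference between muscles. Actc1 falls steeply from quadriceps to soleus in the young mice and little in the adults, and Amph rises steeply in the adults.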

How the data were processed

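Whole-muscle RNA was measured on Affymetrix arrays of 45101 probe sets. The authors deposited log2 expression values per probe set. The submitters' processing notes name MAS5 and RMA without a role or version, and how background was corrected or values scaled and centred is not stated there. Values were used as deposited, and array medians ran from 4.34 to 4.47. Groups came from the sample titles, and 2 arrays of mouse M2-1, whose title and description disagree on the muscle, entered no group. Symbols came from the platform annotation and RefSeq (34741 of 34945 probe sets with 1 symbol matched, 932 had several, 9160 none).

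Probe sets exceeding the array median on 3 or more of the fitted arrays were kept, and the 1 with the highest mean stood for its gene. limma 3.58.1 in R 4.3.3 (lmFit, eBayes, two-sided, Benjamini-Hochberg over all genes tested, threshold 0.05) was fitted to 18 soleus arrays, to 21 quadriceps arrays and to within-mouse differences of 9 mice, 5 comparisons in all. Muscles of the same mouse deviated together (correlations 0.124 to 0.378, all 9 over 0.1). Separate mice are the replicates, and their number limits the precision. The code was tested on simulated data. Described genes were Capn3, Ky, the 15 largest rises and 15 largest falls that passed without overlap (unnamed clones left out), up to 5 members of each list by p, and the 8 smallest p of each difference. The members and the 47 gene lists were chosen with earlier results of these data known. The alternatives were other samples, codes, scalings, filters, probe set rules, an actin covariate, an intensity trend, array weights and leaving out each array.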

Additional observations from a re-analysis of the deposited data

Results flagged for a closer look

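In adult C3KO soleus, Blnk stood low in mouse Q2-3 at 4.06, where the other 5 arrays read 4.28 to 4.42, and Col4a1 stood high in mouse Q2-2 at 9.99, where the others read 9.55 to 9.69. These were 2 of 42 such tests, and chance alone singles out about 1 in 20 groups.

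By the test of the difference itself, the adult minus young change differed between C3KO and wt soleus by -2.47 for Vegfc, 1.98 for Acer2, 1.30 for Hsph1, 2.63 for Alpk3, 1.46 for Foxo1, 2.04 for Dct, -1.71 for Zfp30 and 1.49 for Rgcc (log2, C3KO minus wt). Between soleus and quadriceps of the same C3KO mice it differed by 2.82 for Actc1, -1.23 for Tmem37, -1.06 for Aldh1a1, 0.97 for Nin, 1.46 for Nckap5, 2.28 for Amph, 1.36 for Cd28 and 0.81 for Ankrd44 (log2, soleus minus quadriceps).

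The soleus array of H4-2, which entered none of the main comparisons and only the alternatives with H4-2 kept, had a liver gene median of 12.3. The other soleus arrays had 3.31 to 3.75.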

How the results depend on the processing

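The 149 genes of the C3KO soleus comparison became 512 with H4-2 kept, 242 with array weights, 38 on arrays of code 1-3 alone and 28 with code as a block, and ran from 10 to 212 on leaving out 1 array. The 32 genes of the genotype difference became 121 with array weights, 52 with the probe set of smallest p, 21 with code as a block or with the actin covariate, and 17 with the mean of the probe sets, and ran from 10 to 149 on leaving out 1 array. The 18 genes of the paired muscle difference became 2 on mice with both arrays of code 1-3 and ran from 1 to 26 on leaving out 1 mouse. Without the replicate block, that is with the paired muscles of a mouse taken as independent, 5 genes passed. Quadriceps gave 57 genes without the array of H4-2 and 31 to 187 on leaving out 1 array, and wt soleus 17 to 137, where 136 and 106 had passed. For the C3KO soleus count, the other settings gave 105 to 208. Vegfc and Hsph1 lost their genotype difference with the mean of the probe sets (-1.16, adjusted p = 0.0636, and 1.18, 0.0611), and Zfp30 with H4-2 kept (-1.47, 0.0504). The causes were not tested. Low signal limits genes whose young values lie at or below the array median.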
